A study of Bos taurus with 30 samples.

Results

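The X-linked miRNA cluster studied here comprises bta-miR-188, bta-miR-362-3p, bta-miR-362-5p, bta-miR-500, bta-miR-502a, bta-miR-502b, bta-miR-532 and bta-miR-660 (the prefix, for Bos taurus, is left out below). These are 8 of the 1030 bovine miRNAs listed in a small RNA sequencing table of calf testes, and they were chosen by name because their genes lie in 1 cluster in CLCN5, not by any measured value. The testes came from 30 Holstein-Friesian bull calves aged 12 weeks, of which 15 were fed the diet called High and 15 the diet called Moderate from week 2, with 1 library per calf. High calves were given 1.5 kg of milk replacer in 10 L each day with free access to concentrate, and were meant to gain 1.0 kg daily. Moderate calves were given 0.5 kg in 4 L with 0.5 kg of concentrate, and were meant to gain 0.5 kg daily. The study asked whether early nutrition alters the miRNAs of the calf testis.

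miRNAs are short RNAs cut from hairpin precursors. One or both arms of a hairpin are loaded into Argonaute proteins and lower the translation and stability of mRNAs that pair with the seed near the 5′ end. miRNAs of a genomic cluster are often cut from shared transcripts, and their mature levels then still depend on how well each hairpin is processed and how stable each arm is. In mammals this cluster lies on the X chromosome within CLCN5, which encodes an endosomal chloride/proton exchanger. It is conserved among placental mammals, and miR-532, miR-660 and miR-362 have been studied mostly in tumour cells.

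The RefSeq gene table of the bovine assembly ARS-UCD2.0 placed 8 miRNA genes within the bounds of CLCN5 on chromosome X, and all 8 belong to the cluster. In the order of the chromosome they are MIR532, MIR188, MIR502A-2, MIR502B, MIR362, MIR500, MIR660 and MIR502A-1. miR-362 is listed with both arms and miR-502a has 2 genes, at separate places in the row, so 8 genes give 8 listed miRNAs. The gene table holds no exons, and the position of the hairpins relative to the exons of CLCN5 was not analysed here.

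The libraries held 6.0003 to 19.98 M reads (megareads), in ranges up to 10.3 M reads (24 libraries, 11 High and 13 Moderate) and from 16.7 M reads (6 libraries, 4 High and 2 Moderate). Deposited values are CPM after trimmed-mean (TMM) scaling of the library sizes, called units here. Diet was taken from the diet characteristic in the labels. The ending of the deposited column names, H or L, matches this characteristic in every library. In 18 libraries the title names the opposite diet, and the sources do not say which label is right. The library called Moderate replicate 5 stood apart, with 84.8% of reads from miR-10b where the other 29 libraries had 37.0% to 48.99%. Values without it stand beside those that it moves. The gonadal miRNAs miR-202 and miR-140 and the germ cell miRNAs miR-34b, miR-34c and miR-449a were above 0 in all libraries. Of the germ cell miRNAs 2 of 3 were higher under High, miR-34b (7.65 against 4.74 on average) and miR-34c (113 against 64.6), and miR-449a was not (11.7 against 11.9). The summed level of all 3 ran from 89.3 to 265 under High and from 21.9, in Moderate replicate 5, to 185 under Moderate. The lowest sum in the other 29 libraries was 40.5. Both miR-34b and miR-34c passed an adjusted p of 0.05 by diet in limma, with and without Moderate replicate 5. Of all tested miRNAs 4.91% passed with that library and 11.7% without it. In the lists of other cell types the summed levels overlapped between the diets and 0 miRNAs passed. Without that library 1 of 23 tested passed, the muscle miRNA miR-499, named after its values were seen. The striated muscle miRNAs miR-1 and miR-206 were at 0 in all libraries.

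All 8 members were detected in all 30 libraries, and 2 of them made up nearly all of the cluster's reads. miR-660 stood at 2576 ± 354 (SD, n = 30) and supplied 79.1% of the cluster on average, and miR-532 stood at 547 ± 65.6 and supplied 16.9%. The other 6 ranged from 43.5 ± 10.2 for miR-502a and 37.1 ± 17.5 for miR-502b, through 15.1 ± 3.42 for miR-188, 13.5 ± 2.46 for miR-500 and 10.2 ± 2.27 for miR-362-5p, to 6.82 ± 1.39 for miR-362-3p. Leaving out Moderate replicate 5 put miR-502b at 34.1 ± 5.53 (SD, n = 29), miR-660 at 2610 ± 304 and miR-532 at 554 ± 51.9. By mean level miR-660 was 35th and miR-362-3p 254th of the 387 miRNAs tested. The cluster as a whole took 0.346% of the reads of the median library. Since each read is 1 mature miRNA, these levels share a scale, although differences in ligation and amplification between miRNAs are part of it.

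The order of the abundant members was the same in every library, and that of the rare ones was not. miR-660 exceeded miR-532 in 30 of 30 libraries, by 4.70-fold on the log2(value + 0.5) scale, and the ranges of miR-660, miR-532 and miR-502a did not overlap. miR-502a exceeded miR-502b in 27 of 30 libraries, by 1.21-fold. miR-188 and miR-500 were not separated beyond their spread: miR-188 was the higher in 19 libraries and the lower in 10, with 1 tie, and the mean log2 ratio was 0.13 with an SD of 0.30. miR-500 exceeded miR-362-5p in 28 of 30, and miR-362-5p exceeded miR-362-3p in 29 of 30. The listed miRNAs of neighbouring genes could differ widely in level: MIR500 lies next to MIR660, and their miRNAs stood at 13.5 and 2576. Only miR-362 is listed with both arms, so the whole output of the other hairpins was not measured. Reads behind the values ran from 3305 to 64126 for miR-660 and from 2 to 177 for miR-362-3p.

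**Figure D1:**
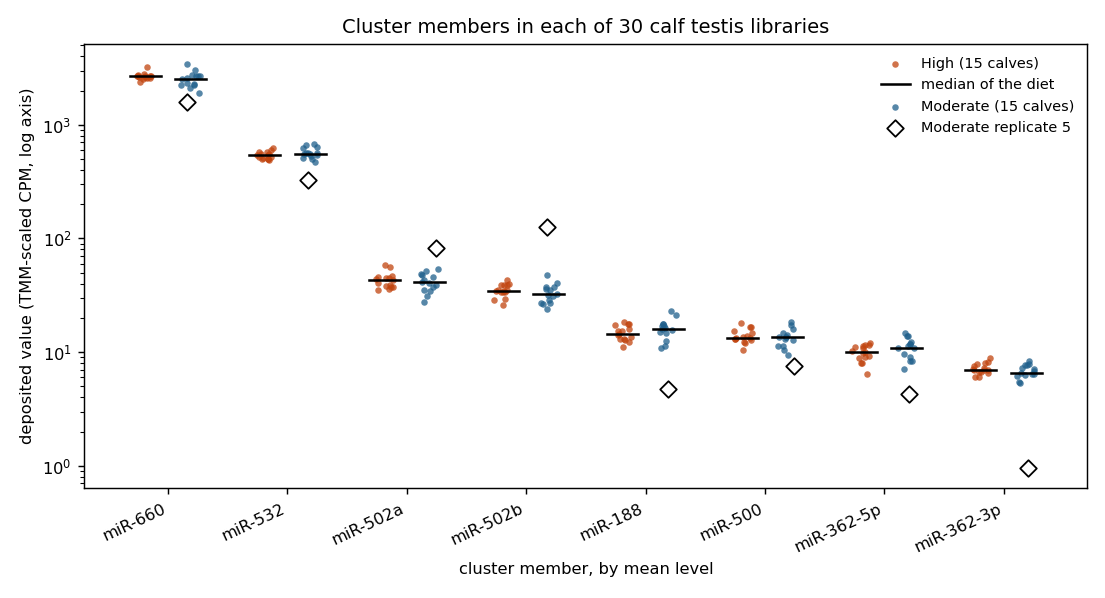
Deposited value (TMM-scaled CPM, log axis) of each cluster member in each library, with the High and Moderate calves side by side, the diet median as a bar and Moderate replicate 5 as a diamond. The diets overlap for all 8 members, and Moderate replicate 5 lies below all other libraries for 6 members and above them for miR-502a and miR-502b.

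In Moderate replicate 5 the cluster split. miR-660 (1572), miR-532 (328), miR-188 (4.76), miR-500 (7.61), miR-362-5p (4.28) and miR-362-3p (0.951) lay below all of the other 29 libraries, while miR-502a (81.8) and miR-502b (125) lay above all of them. The highest of the others was 58.1 for miR-502a and 47.4 for miR-502b, and the lowest of the others was 1895 for miR-660 and 475 for miR-532. In log2 units this library departed from the mean of the other 29 by 1.88 for miR-502b, 0.97 for miR-502a, -0.72 for miR-660 and -2.36 for miR-362-3p. Such departures were common in it: of the 387 miRNAs tested, 18.3% lay above and 44.96% below all other libraries. The value of miR-362-3p rests on 2 reads and that of miR-188 on 10.

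Without TMM scaling no member lay above the other 29. In CPM of total reads miR-502b stood at 29.6 in this library, within the range of the other 29 (23.4 to 56.1). miR-502a stood at 19.4, below their range of 26.6 to 64.8. miR-660 was at 372 against 2016 to 3585, miR-532 at 77.7 against 506 to 739, and miR-188 at 1.13 against 11.4 to 27.1. As shares of the cluster, which scaling between libraries does not alter, miR-502a and miR-502b were higher here: 3.85% for miR-502a against 0.919% to 1.71% in the other 29, and 5.89% for miR-502b against 0.768% to 1.36%. Some cell type marker lists also departed in this library, and others did not. The red blood cell miRNAs miR-144, miR-451 and miR-486 summed to 7927 against 755 to 3606 in the other 29, and in CPM of total reads to 1877 against 760 to 4421. The endothelial miR-126 arms summed to 5125 against 8981 to 14720 (1213 against 9016 to 15990 in CPM of total reads). The gonadal miR-202 with miR-140 summed to 1893 against 3361 to 5057 (448 against 3439 to 5743 in CPM). The germ cell list (21.9 against 40.5 to 265) and the striated muscle list (3.33 against 12.4 to 24.1) also lay below. The smooth muscle, leukocyte, epithelial and neural lists lay within the range of the other 29. In CPM of total reads they lay below it. The part of these cell types in the split was not tested.

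Beyond that library, how tightly the members moved together was described by the SD across libraries of the log2 ratio of each pair. Apart from the 0.5 added to each value, this does not depend on scaling between libraries. That addition weighs most on miR-362-3p in Moderate replicate 5 (0.951). The ratio of miR-660 to miR-532 had the smallest SD, 0.17 in all 30 libraries, where counting alone gives 0.024. Both are abundant, so this ranking, with counting error included, does not show that they moved together most tightly. Over the 28 pairs the median SD was 0.35, with the largest, 0.82, for miR-362-3p and miR-502b. With that library left out the median was 0.27 and the largest 0.40, for miR-362-5p and miR-502a. The 220 tested miRNAs whose mean level lies within the range of the members gave a median of 0.43 over all their pairs, and 0.34 without that library. Those pairs include the members, were not matched to the cluster's pairs by level, and their counting error was not computed. By the median the cluster's ratios varied less than those of all pairs in that range, as a description with no test. For the rare members much of this is counting error: without that library, miR-362-3p against miR-660 had an SD of 0.18, and counting alone gives 0.18.

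**Figure D2:**
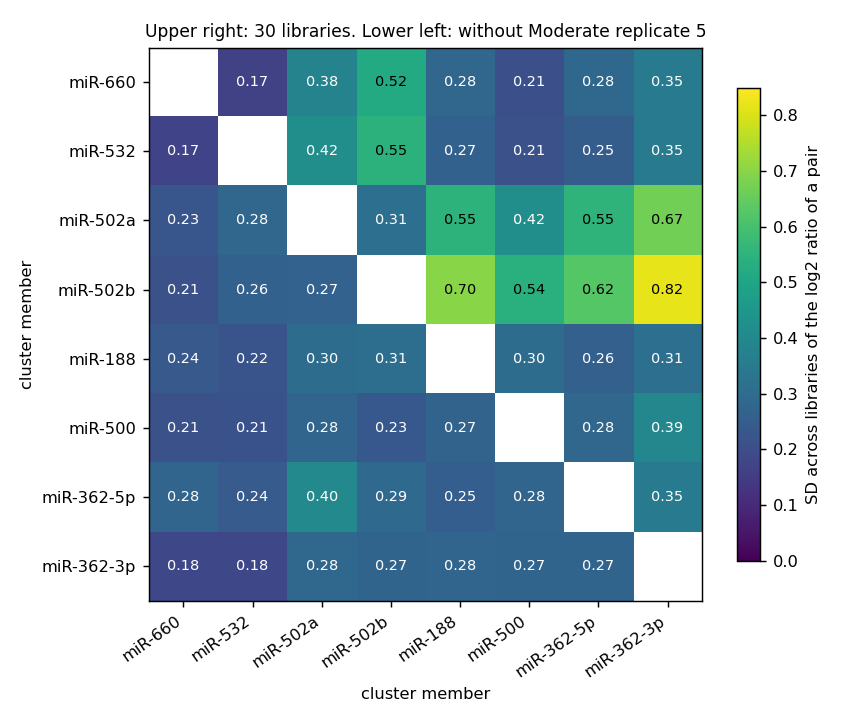
SD across libraries of the log2 ratio of each pair of members, with all 30 libraries in the upper right and Moderate replicate 5 left out in the lower left; darker means a steadier ratio. miR-660 with miR-532 has the smallest SD in both, counting error included. The pairs of miR-362-3p and miR-188 with miR-502b drop most when that library is left out.

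Across the 29 other libraries the relation of log2 levels with miR-532 passed adjustment for miR-188 and miR-362-5p and not for the other members. The correlations were not compared with each other, so a difference between members was not tested. These levels, unlike ratios within a library, depend on scaling between libraries. Correlations with miRNAs outside the cluster were not computed, so these values cannot show a trait particular to it. Over 7 relations (permutation tests with 100000 resamples, two-sided, Benjamini-Hochberg adjusted over the 7), miR-188 had a Pearson r of 0.501 (permutation p = 0.00575, adjusted 0.0402) and a Spearman rho of 0.524 (adjusted permutation p = 0.0240). miR-362-5p had an r of 0.460 (permutation p = 0.0118, adjusted 0.0413) and a rho of 0.500 (adjusted permutation p = 0.0240). With the 2 libraries farthest from the median of miR-532 left out, r was 0.521 and 0.403. For miR-500 (r 0.381, rho 0.379) and miR-660 (r 0.379, rho 0.300) the adjusted permutation p was 0.0737 for r, and 0.101 and 0.198 for rho. miR-362-3p stood at r 0.238 and rho 0.225, but the SD of its log2 level was 0.16 and counting alone gives 0.18. miR-502a and miR-502b showed no relation with miR-532, at r -0.0236 and 0.0361 (adjusted permutation p = 0.902 for both) and rho -0.0296 and 0.0320. With Moderate replicate 5 included, r was 0.774 for miR-188 (rho 0.570) and -0.591 for miR-502b (rho -0.0679). That library thus raised the r of miR-188, and the r of miR-502b rests on it.

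No relation passed adjustment within a depth range or a diet. Within the 23 libraries under 12 M reads, r with miR-532 was 0.483 for miR-188 and 0.381 for miR-362-5p (adjusted permutation p = 0.137 and 0.251). In the 6 deeper libraries r was 0.0368 and 0.878 (adjusted exact permutation p = 0.968 and 0.107). Within the 15 High libraries r was 0.373 and 0.285, and within the 14 Moderate ones 0.523 and 0.501.

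No member of the cluster differed by diet past the threshold. In limma on log2(value + 0.5), fitted over 387 miRNAs and adjusted over all of them, 0 of the 8 members passed an adjusted p of 0.05 and 0 had an unadjusted p under 0.05, where 4.91% of all tested miRNAs passed (19 of 387) and 21.2% had an unadjusted p under 0.05. edgeR and DESeq2 on the recovered reads also called 0 of 8, with 0 at an unadjusted p under 0.05 in each. Of all miRNAs edgeR called 9.52% (24.6% unadjusted), and DESeq2 called 10% of the 480 with an adjusted p (12.3% of 838 unadjusted). With Moderate replicate 5 left out, limma again gave 0 of 8 and 0 of 8 unadjusted, where 11.7% of 385 miRNAs passed (29.9% unadjusted). The members' log2 fold changes, High minus Moderate, ran from -0.058 to 0.22 with a median of 0.0070, and 5 of 8 were above 0. Over all tested miRNAs the median was 0.031 and 218 of 387 were above 0. In bulk tissue, in these and all other values a change in the number of cells that make a miRNA and in its amount per cell cannot be told apart.

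miR-660 had the lowest p of the members. It ranged from 2390 over a median of 2673 to 3226 under High, and from 1572 over 2535 to 3415 under Moderate. The High libraries lay inside the Moderate range, 14 of 15 above the Moderate median, and 7 Moderate libraries were below the lowest High one. The means were 2683 ± 176 and 2468 ± 452, and the log2 fold change was 0.14 (95% confidence interval -0.010 to 0.29, adjusted p = 0.276 in limma). Leaving out Moderate replicate 5, it was 0.096 (-0.026 to 0.22, adjusted p = 0.313 in limma).

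miR-532, the other abundant member, did not follow miR-660. Its values were 495 to 624 (median 537) under High and 328 to 674 (median 558) under Moderate, with 11 of 15 High libraries below the Moderate median. The log2 fold change was -0.018 (-0.16 to 0.13), a difference of -10.6% to 9.20% on that interval, and -0.070 (-0.17 to 0.030) without Moderate replicate 5. These are the narrowest intervals of the cluster.

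miR-502a and miR-502b overlapped between the diets, and their highest values were those of Moderate replicate 5. miR-502a ran from 35.5 to 58.1 (median 42.8) under High and from 27.5 to 81.8 (median 40.98) under Moderate, with a log2 fold change of 0.012 (-0.21 to 0.24). miR-502b ran from 25.9 to 42.98 (median 34.7) and from 24.1 to 125 (median 32.5), with -0.035 (-0.34 to 0.27). Without that library the highest Moderate values were 53.6 and 47.4, and the log2 fold changes were 0.079 (-0.10 to 0.26) and 0.093 (-0.081 to 0.27). In 18 of 30 libraries miR-502a held a fraction of a read, which no other member did. How those reads were divided is not stated, so the level of miR-502a is uncertain to that extent.

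The rarer members had wider intervals. miR-188 was at 11.1 to 18.4 (median 14.4) under High and 4.76 to 22.9 (median 16.02) under Moderate, with a log2 fold change of 0.0019 (-0.28 to 0.28) that became -0.11 (-0.30 to 0.086) without Moderate replicate 5. miR-500 was at 10.5 to 18.2 (median 13.4) and 7.61 to 18.2 (median 13.6), with 0.10 (-0.097 to 0.31), and 0.053 (-0.12 to 0.23) without that library. The lowest value of each was again Moderate replicate 5, and the High range lay within the Moderate one. miR-362-5p was at 6.41 to 11.98 (median 9.98) under High and 4.28 to 14.6 (median 10.97) under Moderate, with -0.058 (-0.31 to 0.20), and -0.14 (-0.34 to 0.063) without that library. miR-362-3p was at 5.99 to 8.90 (median 6.99) and 0.951 to 8.35 (median 6.58), with 0.22 (-0.10 to 0.55), which was 0.069 (-0.070 to 0.21) without that library. Scaling set the level of all these differences together: with library totals in place of TMM all 8 were above 0, from 0.12 to 0.36, and the median of all tested miRNAs was 0.21. Leaving out Moderate replicate 5 on that scale, 6 of 8 were above 0, the members ran from -0.073 to 0.17 and the median of all was 0.069.

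**Figure D3:**
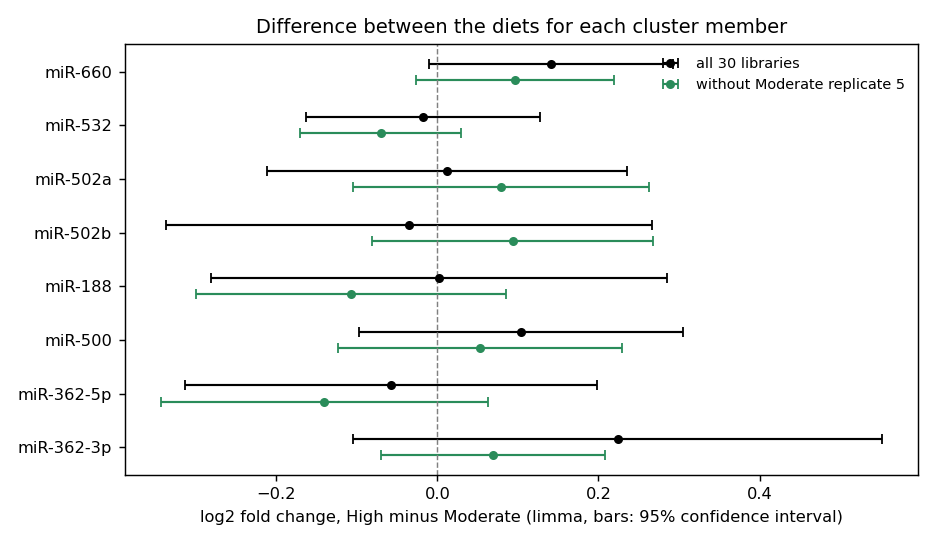
Log2 fold change of each member, High minus Moderate, with its 95% confidence interval from limma, in all 30 libraries and without Moderate replicate 5. Every interval includes 0 in both fits, and the intervals of miR-532 are the narrowest.

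All 8 members were more spread out under Moderate than under High, as were 86.0% of all tested miRNAs in the 30 libraries. In all 30 libraries the ratio of the SDs of log2 levels was highest for miR-362-3p (4.14) and miR-660 (3.03), and 41 of 387 tested miRNAs reached the ratio of miR-660, with a median over all of 1.49. Without Moderate replicate 5 the highest among the members was that of miR-660: the SD of log2 miR-660 was 0.22 under Moderate and 0.090 under High, a ratio of 2.43 that 4 of the 387 tested miRNAs, itself included, reached or exceeded. Over all tested miRNAs the median ratio was then 1.15 and 67.96% were above 1. The other 7 members had ratios from 1.16 for miR-362-3p to 1.47 for miR-532. This comparison was made after the values were seen and carries no test.

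Expressed relative to miR-532 in the same library, which removes nearly all scaling, miR-660 was higher under High by 0.16 (95% confidence interval 0.034 to 0.28). Its ratio to miR-532 was 4.98 ± 0.333 under High and 4.48 ± 0.576 under Moderate, and 13 of 15 High libraries lay above the Moderate median. The unadjusted p of 0.0142 became 0.141 when limma was fitted to the ratios of all 386 other miRNAs to miR-532, of which 3.89% passed (15 of 386) and 21.8% had an unadjusted p under 0.05. With Moderate replicate 5 left out the difference was 0.17 and the adjusted p 0.0735 in limma, where 8.07% of 384 miRNAs passed (26.6% unadjusted). The ratio thus did not pass, and no other member passed relative to miR-532. This reference was chosen after the values were seen.

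The balance of the miR-362 arms differed between the diets by the test planned for it. miR-362-5p exceeded miR-362-3p by 0.42 ± 0.24 on the log2 scale under High and by 0.70 ± 0.38 under Moderate (n = 15 each). The difference was -0.28 (standard error 0.12; permutation p = 0.0167, two-sided, 100000 resamples). As plain ratios the High libraries ran from 0.809 to 1.73 with a median of 1.39, and the Moderate ones from 1.16 to 4.50 with a median of 1.67. The ranges overlapped, and the highest ratio, 4.50, was Moderate replicate 5, with 9 reads against 2. Leaving it out, the highest Moderate ratio was 2.03 and the difference -0.21 (permutation p = 0.0342). Among the 32 hairpins with both arms tested in limma, 9.38% had an unadjusted p under 0.05 (3 of 32), miR-362 had the lowest p, and its adjusted p over the 32 was 0.379. When Moderate replicate 5 was left out, 12.5% had an unadjusted p under 0.05 (4 of 32), miR-362 ranked 3 and its adjusted p was 0.337. It did not pass in either fit over all hairpins, and 0% of hairpins did. Of the SD of this log2 ratio over the 30 libraries, 0.35, counting error alone gives 0.31.

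**Figure D4:**
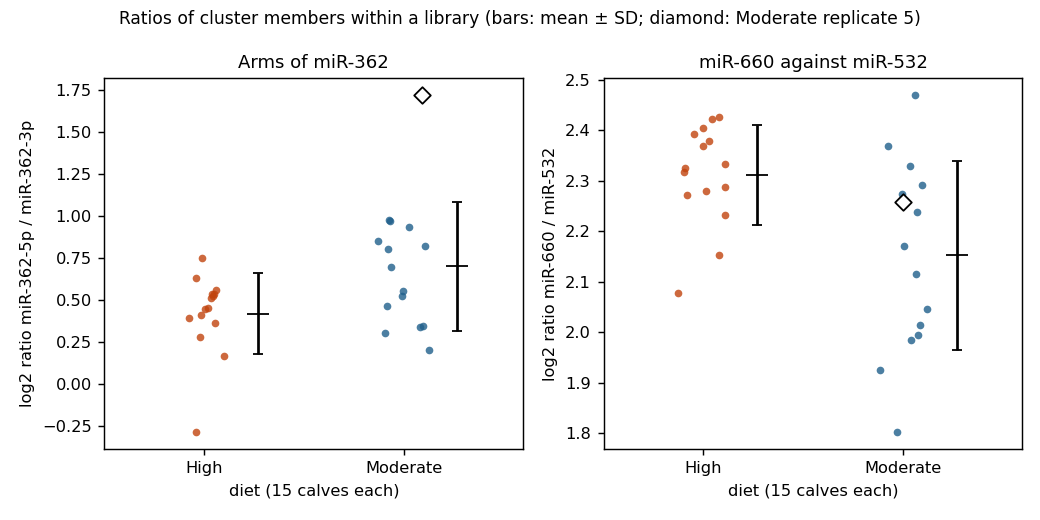
Log2 ratio of miR-362-5p to miR-362-3p and of miR-660 to miR-532 in each library by diet, with mean ± SD beside the points and Moderate replicate 5 as a diamond. The High libraries sit lower for the miR-362 arms (0.42 against 0.70) and higher for miR-660 against miR-532, with overlap in both.

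Neither the titles nor agreement of the labels brought out a diet difference in the cluster. With the diet given in the titles, 0 of 8 members passed or had an unadjusted p under 0.05 in limma, and log2 fold changes ran from -0.13 to 0.15; of all 387 miRNAs 0% passed and 2.84% had an unadjusted p under 0.05. In the 12 libraries where title and characteristic name 1 diet (6 per diet) the members ran from -0.20 to 0.47 (-0.19 to 0.15 without Moderate replicate 5), and in the 18 with conflicting labels, grouped by the diet characteristic, from -0.14 to 0.078, with 0 of 8 passing in both. Of all miRNAs 0% passed in both, with 11% and 15.1% at an unadjusted p under 0.05. The interaction of diet with label agreement gave adjusted p-values in limma of 0.785 to 0.920 for the members, and 0.974 to 0.987 without Moderate replicate 5. The arm difference of miR-362 was -0.40 in the 12 (exact permutation p = 0.0758), or -0.23 with Moderate replicate 5 left out (exact permutation p = 0.149), -0.20 in the 18 (exact permutation p = 0.130) and -0.040 by the titles (permutation p = 0.768). By depth, it was -0.32 in the libraries under 12 M reads (permutation p = 0.0300), -0.23 when Moderate replicate 5 was left out of these (permutation p = 0.0525), and -0.15 in the 6 deeper ones (exact permutation p = 0.533).

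Other miRNAs with a gene on the X chromosome number 73 in the table. For 64 of them every listed gene is on X, and the rest also have a gene elsewhere. Of the 73, 47 were tested. Of these 0 passed the test in either direction, 7 had an unadjusted p under 0.05, and their median log2 fold change was 0.065, where of all 387 tested 4.91% passed, 21.2% had an unadjusted p under 0.05 and the median was 0.031. With Moderate replicate 5 left out 2 of the 47 passed, miR-421 (0.24) and miR-374a (0.15), both higher under High (miR-374a was picked out after its values were seen), 12 had an unadjusted p under 0.05 and the median was 0.0054, where 11.7% of all passed. In the fit to all 30 libraries the lowest X-linked p-values belonged to miR-507b (log2 fold change 0.48, adjusted p = 0.0638 in limma), miR-421 (0.22, 0.0820) and miR-545-5p (0.42, 0.0820). Their mean levels under High and Moderate were 45.0 and 32.5 for miR-507b, 179 and 154 for miR-421, and 8.58 and 6.44 for miR-545-5p.

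The miRNAs outside the cluster whose pattern over the 30 libraries was most like it were let-7g, miR-361, miR-92a, miR-2285ce and miR-2285bn. The measure was the SD of a miRNA's log2 level minus the mean log2 level of the 7 members with a mean value of at least 10. It was 0.15 for let-7g and 0.16 for miR-2285bn, against a median of 0.36 over the 379 tested non-members. Among the members it ran from 0.14 for miR-660 and 0.15 for miR-532, which are part of that mean, to 0.43 for miR-502b. Without Moderate replicate 5 the 5 most alike were different miRNAs: miR-30e-5p, miR-30d, miR-20a, miR-30c and miR-93, at 0.13 to 0.14, with miR-502b then at 0.17. Counting error adds to this SD for rare miRNAs, and let-7g and miR-92a are among the more abundant ones at 2713 and 23940.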

How the data were processed

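Small RNA of 30 calf testes was sequenced with Illumina TruSeq small RNA libraries, per the labels' protocols. The submitters' processing notes name cutadapt 2.6 and FastQC 0.11.8, with edgeR 3.5 in R 3.4. Neither an aligner nor a build is named in these sources. The deposited table holds a normalized signal, CPM with TMM-scaled library sizes, as worked out from the values: once divided by the worth of 1 read, 95.3% of the 18379 non-zero values were whole to 0.02 read. The other values, in 58 miRNAs including miR-502a, are fractions, rounded for count tests. No sequence table was used here, so shared seeds and near-identical reads of miR-500, miR-502a and miR-502b were not analysed.

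Diets were compared in limma 3.58.1 (trended variance prior, log2(value + 0.5)) over the 387 miRNAs at 1 or more in at least 15 libraries. All 8 members passed this filter. P-values are two-sided and Benjamini-Hochberg adjusted over all tested miRNAs. edgeR 4.0.16 (quasi-likelihood) and DESeq2 1.42.0 on recovered reads, other scalings, filters, labels and left-out libraries were alternatives. Tests were checked on simulated data drawn from 1 mean profile without Moderate replicate 5, so the check does not cover a library like it. The 3 reads that a value of 0 allows amount to 0.138 to 1.43 units (counting error only). No 2 libraries agreed within sampling noise. Replicate numbers follow accession order. Members and lists were chosen with earlier results of these data known. Named are the members, the 5 most alike miRNAs, the 3 X-linked miRNAs with the lowest p, and listed cell type markers. Of the 1030 miRNAs, 1009 had a gene in the RefSeq table, whose coordinates are not printed.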

Additional observations from a re-analysis of the deposited data

How the results depend on the processing

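No member of the cluster passed an adjusted p of 0.05 in any of 49 alternatives, and the lowest adjusted p was 0.0735, for miR-660 relative to miR-532 without Moderate replicate 5. An unadjusted p under 0.05 occurred 7 times among 389 tests of members, each time for miR-660. The alternatives refit the same libraries, so these are not separate tests. In the 7 settings, from 84 of 386 (relative to miR-532) to 108 of 389 miRNAs (library totals without Moderate replicate 5) had such a p. With a filter at 10, miR-362-3p was not tested. The number of all miRNAs past the threshold was 19, and 0 with no filter, with library totals, with the title diet, and in libraries with the same or conflicting labels (0 also with the same labels and Moderate replicate 5 left out). It was 36 in edgeR, 48 in DESeq2, 3 under and 4 over 12 M reads, and, with Moderate replicate 5 left out, 48 in edgeR, 31 with library totals and 31 relative to miR-532. Leaving out each library gave 0 to 45. It was 0 without High replicate 5 and 45 without Moderate replicate 5.

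Members with fold changes near 0 changed sign. miR-188 went from 0.0019 to -0.0053 (pseudocount 2), -0.0042 (median of ratios), -0.081 (edgeR), -0.069 (DESeq2), -0.057 (conflicting labels), -0.024 (depth as covariate) and -0.057 (under 12 M reads). Without Moderate replicate 5 it was -0.11 in edgeR, -0.038 with library totals, -0.19 with the same labels and -0.037 relative to miR-532. miR-362-5p became 0.12 (library totals), 0.068 (same labels) and 0.11 (titles), and miR-500 -0.010 (conflicting labels). miR-502a became -0.054 (edgeR), -0.031 (DESeq2), -0.017 (same labels), -0.025 (titles) and -0.030 (under 12 M reads). miR-502b became 0.17 (library totals), 0.078 (conflicting labels) and 0.13 (over 12 M reads). Without Moderate replicate 5 it was 0.093 in edgeR, 0.16 with library totals, 0.093 with the same labels and 0.16 relative to miR-532. miR-532 became 0.19 (library totals), 0.019 (same labels) and 0.033 (titles), and 0.0012 with library totals without Moderate replicate 5. Leaving out each library gave -0.11 to 0.047 for miR-188, -0.032 to 0.079 for miR-502a, -0.075 to 0.093 for miR-502b and -0.070 to 0.0039 for miR-532; the other 4 kept their sign. The cause of these changes was not tested.

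The miR-362 arm difference, -0.28, lay between -0.32 and -0.21 when each library was left out, and was -0.22 with a pseudocount of 2 (permutation p = 0.0177). It no longer passed with the same labels (-0.40; -0.23 without Moderate replicate 5), conflicting labels (-0.20), titles (-0.040), over 12 M reads (-0.15), under 12 M reads without Moderate replicate 5 (-0.23), or in limma over all hairpins (-0.28, and -0.21 without that library). The cause was not tested. No paired analysis was possible because the replicate numbers follow accession order and the labels pair no calves.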
